A study of Mus musculus with 25 samples.

Results

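The genes examined were the chemokines, the receptors through which they signal and the atypical receptors that bind them without conventional signalling. They were chosen by name: every annotated mouse gene symbol made of Ccl, Cxcl, Ccr, Cxcr or Ackr and a number, together with Cx3cl1, Cx3cr1 and Ccrl2. Of the 41388 gene identifiers in the count tables, 59 had such a symbol, and 57 of these had at least 1 read in at least 1 of the 25 liver libraries. The remaining pair, Ccl21a and Ccl21b, had 0 reads in all 25 libraries, where 3 reads of a library correspond to 0.0707 to 0.162 CPM, counting error only. Levels are given as CPM, counts scaled to a common library size, after correction by TMM factors, which allow for differences in composition between libraries.

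Poly(A)-selected liver RNA was sequenced from 25 male C57B/6J mice aged 20 wk, 1 library a mouse, and all of the mice had been injected by tail vein with an AAV8 vector. Mice designated WT carried the loxP-flanked Sirt1 allele without Cre. In the mice designated LKO, Albumin-Cre, which is active in hepatocytes from before birth, additionally deletes part of Sirt1, the gene of an NAD-dependent deacetylase. The vector was either empty (EV) or encoded NAMPT, the rate-limiting enzyme of NAD salvage, behind the hepatocyte-specific thyroxine binding globulin promoter. The groups were chow WT EV (n = 3), Western diet (WD) WT EV (n = 6), WD WT NAMPT (n = 6), WD LKO EV (n = 5) and WD LKO NAMPT (n = 5), and the diets were fed for 12 wk. Both the vector and the deletion were directed at hepatocytes, and whether either reached other liver cells was not checked here. The treatment text of the sample records names SIRT1 as the vector insert whereas the sample titles name NAMPT, and the titles were followed.

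Chemokines are small secreted proteins that guide leukocytes along a gradient. They bind G protein-coupled receptors on the migrating cell, which signal through inhibitory G proteins, phosphoinositide 3-kinase gamma and Rac GTPases and are then switched off by receptor kinases and arrestins. In the liver, Kupffer cells, sinusoidal endothelium, stellate cells and hepatocytes all produce chemokines. Their best known role in fatty liver disease is the recruitment of CCR2-bearing monocytes by CCL2, and CXCR3 ligands draw in activated T and NK cells.

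Library totals ran from 20166175 to 32937326 counts, and the chemokine system genes took 0.0301% to 0.0684% of them. The 2 largest shares, 0.0684% and 0.0651%, were those of WT NAMPT replicates 2 and 1, which also had the highest TMM factors (1.29 and 1.12). All 5 hepatocyte markers examined (Alb, Apoa1, Ttr, Cyp3a11 and Tat) were detected in every group, with summed levels of 43329 to 76665 CPM over the 25 libraries. Sirt1 was not lower in the libraries labelled LKO: its level ran from 7.99 to 9.53 with a median of 9.04 CPM in WD WT EV and from 7.16 to 10.1 with a median of 8.81 CPM in WD LKO EV (log2 fold change -0.07 ± 0.10 SE, adjusted p = 0.990), and it was 0.19 ± 0.11 SE on the log2 scale in LKO NAMPT against WT NAMPT (adjusted p = 0.237). Gene-level counts take in all exons, so they check a partial deletion only in part, and these libraries are called "labelled LKO" below. Nampt differed by 0.34 ± 0.16 SE on the log2 scale between NAMPT and EV in WT (adjusted p = 0.144) and by 0.41 ± 0.16 SE in the mice labelled LKO (adjusted p = 0.403), so neither difference passed the test.

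Many of these genes lie side by side. On chromosome 11 (GRCm38), 6 CC ligand genes from Ccl2 to Ccl1 occupied chr11:82035571-82305690 and 5 more, Ccl5, Ccl9, Ccl6, Ccl3 and Ccl4, occupied chr11:83525778-83664683. A further 9 CXC ligand genes, among them Cxcl1, Cxcl9, Cxcl10 and Cxcl13, lay within chr5:90759299-95961067, and 9 receptor genes, among them Cx3cr1 and Ccr2, within chr9:119901616-124147699. Ccl21a and Ccl21b, and likewise Ccl27a and Ccl27b, are near-identical copies. Reads that align to more than 1 place were not counted, so the 0 reads of the Ccl21 pair and the level of Ccl27a are uncertain. The promoter windows of 4 ligands are shown because these genes moved with diet or vector in the results that follow and because Ccl6 and Ccl9, which are neighbours, did not move alike. Each sequence is RefSeq's (GRCm38.p6), the 250 bases before the annotated start, read 5′ to 3′ on the gene's own strand. Capitals mark matches on either strand to GGG and TTTCC with 2 bases between them, a form of the NF-κB site, or to GAAA and GAAA with 2 bases between them, a form of the interferon response element.
Cxcl1 (chr5:90890995-90891244, plus strand): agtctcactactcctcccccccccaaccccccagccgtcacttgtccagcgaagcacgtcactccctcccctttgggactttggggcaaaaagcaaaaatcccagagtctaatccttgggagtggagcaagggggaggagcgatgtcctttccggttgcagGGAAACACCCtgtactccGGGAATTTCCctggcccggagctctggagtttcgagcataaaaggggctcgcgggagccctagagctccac
Cxcl10 (chr5:92348890-92349139, minus strand): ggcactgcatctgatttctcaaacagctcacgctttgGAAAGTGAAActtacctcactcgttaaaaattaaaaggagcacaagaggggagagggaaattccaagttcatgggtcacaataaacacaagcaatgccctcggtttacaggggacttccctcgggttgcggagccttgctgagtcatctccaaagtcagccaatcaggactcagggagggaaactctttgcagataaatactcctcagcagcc
Ccl6 (chr11:83593088-83593337, minus strand): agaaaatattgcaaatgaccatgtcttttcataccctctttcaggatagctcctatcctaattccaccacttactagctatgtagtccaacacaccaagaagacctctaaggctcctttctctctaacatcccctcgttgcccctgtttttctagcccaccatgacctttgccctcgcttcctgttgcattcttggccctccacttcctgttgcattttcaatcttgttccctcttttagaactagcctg
Ccl9 (chr11:83578637-83578886, minus strand): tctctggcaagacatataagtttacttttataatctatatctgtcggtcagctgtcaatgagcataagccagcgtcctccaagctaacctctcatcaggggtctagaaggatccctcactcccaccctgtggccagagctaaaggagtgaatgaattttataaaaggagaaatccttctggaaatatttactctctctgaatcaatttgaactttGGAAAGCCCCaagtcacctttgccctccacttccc

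Of the 59 symbols, 44 had at least 1 promoter entry. The NF-κB form was found in 6 of these 44 genes (Cxcl1, Cxcl2, Cxcl3, Ccl9, Ccl20 and Ccr3) which made 6 of their 53 promoter windows, as a gene can have more than 1, and in 1.41% of all 32851 windows of the same length. Cxcl1 held 2 matches, which began 89 and 71 bases before the start, and Ccl9 held 1, which began 35 bases before it. The interferon form was found in 3 of the 44 genes (Cxcl10, Ccl19 and Cxcl14), in 3 of the 53 windows, and in 2.98% of all windows. Ccl6 matched neither form. A match describes letters in a window and does not show that a factor binds there. Only these exact forms were searched, so a window without a match, such as that of Cxcl10 for the NF-κB form, can hold other forms of the site.

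The liver chemokine with the highest level was Cxcl12, the CXCR4 ligand that retains leukocytes and haematopoietic cells in tissue. Averaged over the 25 libraries and divided by exon length, it stood at 28.9 CPM per kb. Next came Ccl9 and Ccl6, rodent CCR1 ligands, at 12.6 and 10.02 CPM per kb, with the CXCR3 ligand Cxcl9 between them at 10.3 CPM per kb. Cxcl12 was highest in all 5 groups, whereas the order of the other 3 differed between groups. By its mean on chow, Cxcl13 (3.72 CPM per kb) stood above Cxcl9 and Ccl6 (3.42 and 3.08 CPM per kb). That mean was carried by chow replicate 1, with 182 Cxcl13 reads against 66 in each of replicates 2 and 3. In those replicates Cxcl13 stood below Ccl6 per kb. The atypical receptors Ccrl2 and Ackr2 stood at 1.26 and 1.26 CPM per kb. Levels of Cxcl12 stayed within a narrow band over all libraries, from 152 to 321 CPM, whereas Ccl2 ran from 0.0539 to 15.99 CPM, and both of those Ccl2 extremes were WT NAMPT libraries.

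**Figure D1:**
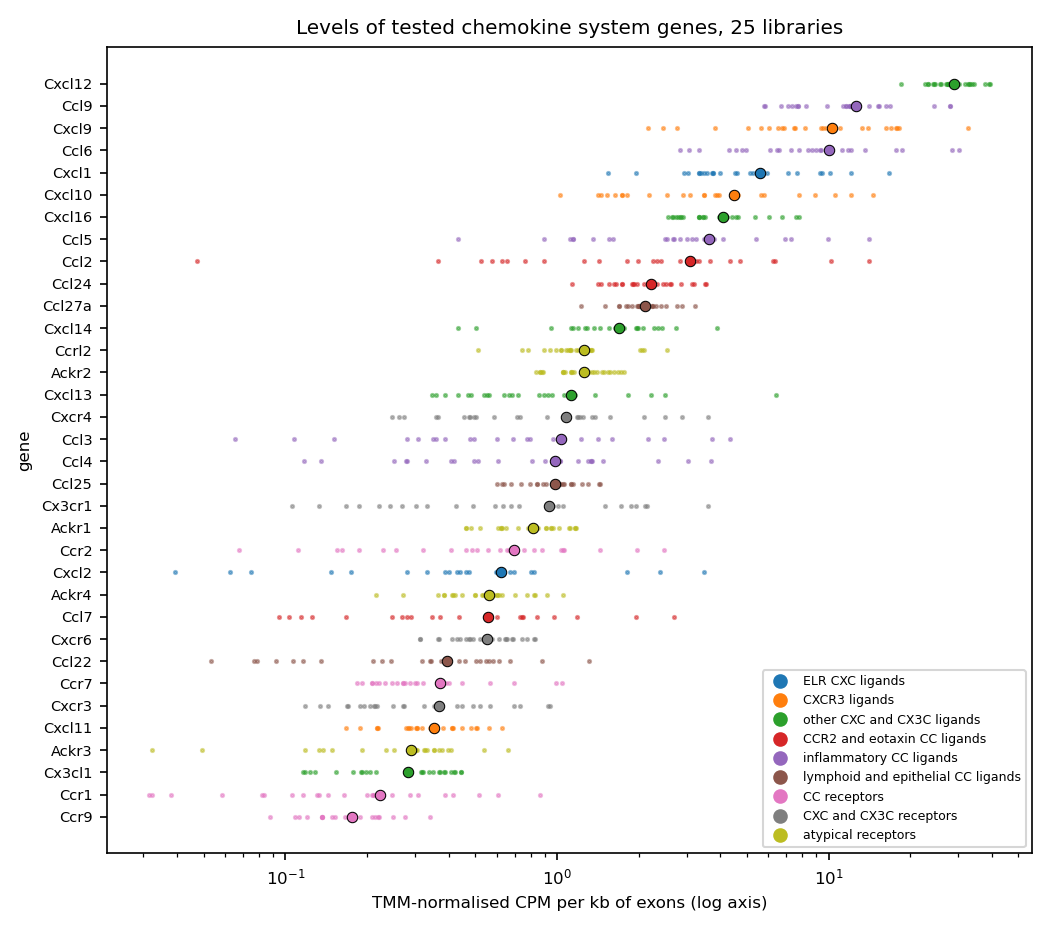
Levels of 34 of the 35 tested genes in TMM-normalised CPM per kb of exon on a log axis, with small points for the 25 libraries, which leave out values of 0, and a ringed point for their mean. Cxcl12 stands highest at 28.9 CPM per kb and Ccr9 lowest, and colours give the role list.

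Of the 57 genes with reads, 35 exceeded 1 CPM in at least 2 libraries and entered the test across 14065 genes. For 5 of the 35 (Ccl4, Ccl7, Ccr1, Ccr7 and Cxcl2) the WT NAMPT libraries were needed to pass that filter, so counts among the tested genes are descriptions and not evidence of their direction. The other 22 had at most 294 reads in all libraries together, and 4 of them (Ccl1, Ccl26, Ccr8 and Cxcl15) had 10 or fewer. Among these low genes, the neutrophil receptor Cxcr2 had 151 of its 281 reads in the WT NAMPT libraries, 73 of them in 1 library, and the neutrophil attractant Cxcl5 had 79 of its 152 reads there, 42 of them in 1 library. These 2 genes were chosen after their values were seen and were not tested. Ccr10, Cxcr5 and Ccr6 had reads in 23, 25 and 22 of the 25 libraries.

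The effect of the NAMPT vector in WT mice on WD was examined first. Of the 35 tested genes 8 were higher in WT NAMPT than in WT EV and 0 were lower at an adjusted p of 0.05 or less, where 7.67% of all tested genes were higher and 5.77% lower. The 8 were the receptors Cx3cr1, Cxcr4 and Ccr7 and the ligands Ccl4, Cxcl10, Ccl6, Ccl9 and Cxcl16. The median log2 fold change of the 35 was 0.78 against 0.00 over all genes, and 30 of the 35 were positive, where 50.7% of all genes were. No gene of the 35 had groups that failed to overlap, a pattern seen in 0.370% of all genes in the higher and 0.590% in the lower direction. Within the group the libraries were far apart: WT NAMPT replicates 1, 2 and 3 exceeded the highest EV library for 23, 24 and 19 of the 35 genes, whereas replicate 6 did so for 1 and fell below the lowest EV library for 13.

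**Figure D2:**
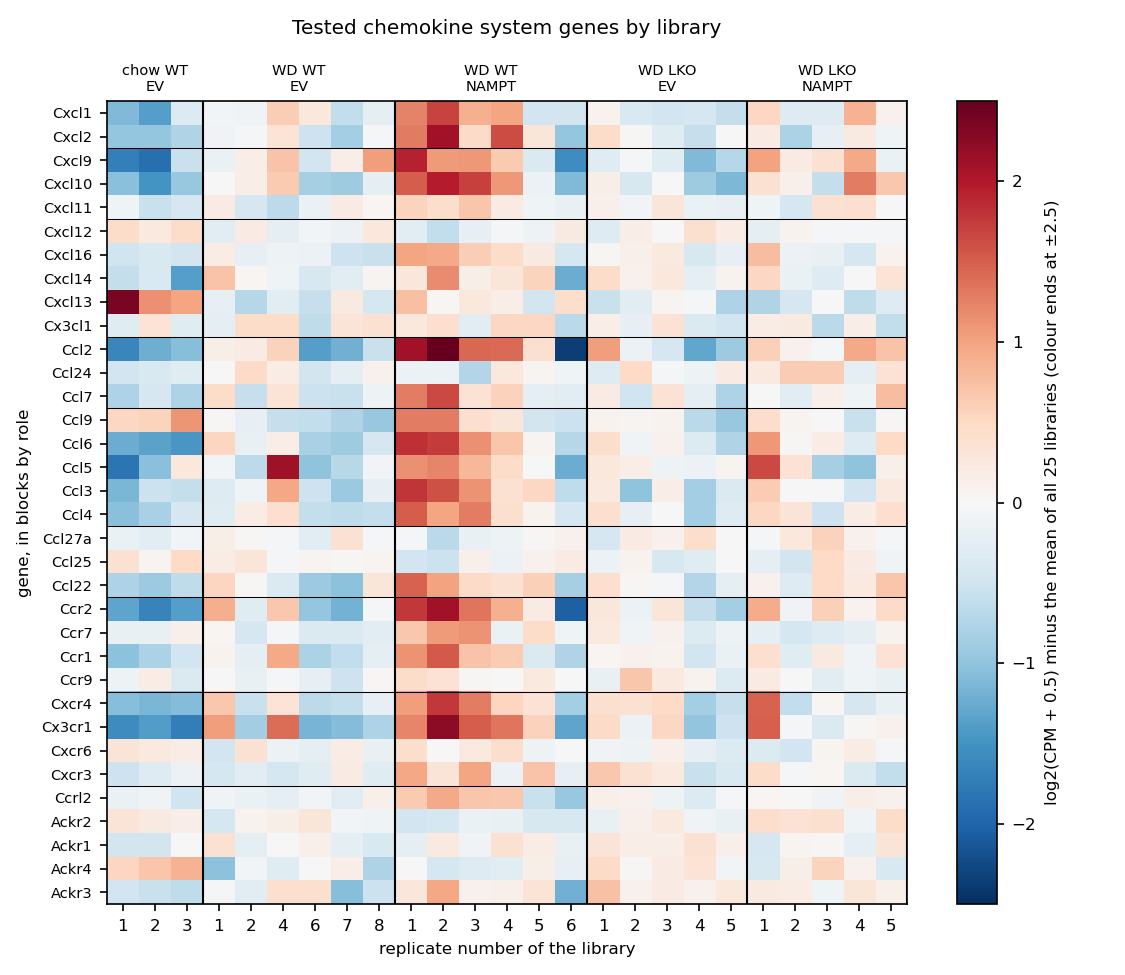
Each row is 1 gene, for 34 of the 35 tested, in blocks by role and each column 1 library, and colour gives log2(CPM + 0.5) minus the mean of the 25 libraries. WT NAMPT replicates 1 to 4 are red across most ligand and receptor rows, whereas WT NAMPT replicate 6 holds the lowest value of its group for 24 of the 35 genes.

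Among the receptors, Cx3cr1, the fractalkine receptor of monocytes and macrophages, ran from 0.825 to 7.32 with a median of 1.19 CPM in WT EV and from 0.700 to 13.4 with a median of 6.72 CPM in WT NAMPT. Its lowest WT NAMPT library, replicate 6, was below every EV library, while the highest was WT NAMPT replicate 2. The fitted difference was 1.87 ± 0.49 SE on the log2 scale, or 3.65-fold (adjusted p = 0.0178), and it turned to -0.22 with 2 surrogate variables as covariates. Its ligand fractalkine, the product of Cx3cl1, stood at 0.458 to 1.56 CPM in WT EV and 0.431 to 1.64 CPM in WT NAMPT (log2 fold change 0.04 ± 0.36 SE, adjusted p = 0.957). Cxcr4, the CXCL12 receptor of most leukocytes, ran from 0.825 to 2.83 with a median of 1.10 CPM in WT EV and from 0.646 to 6.53 with a median of 3.14 CPM in WT NAMPT, and the groups overlapped. That made 1.33 ± 0.42 SE on the log2 scale (adjusted p = 0.0369), which turned to -0.15 with the surrogate variables, whereas Cxcl12 itself differed by -0.14 ± 0.12 SE (adjusted p = 0.450, 95% interval -0.37 to 0.10). For Ccr7, the receptor that leads dendritic cells and T cells into lymphoid tissue, EV libraries ran from 0.378 to 0.717 with a median of 0.438 CPM and NAMPT libraries from 0.546 to 2.07 with a median of 1.25 CPM. Here WT NAMPT replicates 4 and 6 lay inside the EV range and the other 4 above it, with a fitted 1.25 ± 0.36 SE (adjusted p = 0.0255). Ccr7 exceeded 1 CPM in WT NAMPT libraries only, so it was tested only through the group where it was high, and its values are a description. Ccr7's ligand Ccl19 had only 48 reads in all libraries.

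Of the inflammatory CC ligands Ccl3, Ccl4, Ccl5, Ccl6 and Ccl9, all 5 were tested and 3 rose. Ccl6 ran from 7.73 to 21.6 with a median of 11.99 CPM in WT EV and from 8.89 to 54.1 with a median of 28.9 CPM in WT NAMPT, and WT NAMPT replicates 1, 2, 3 and 4 were above every EV library. On the log2 scale Ccl6 rose by 1.11 ± 0.29 SE (adjusted p = 0.0178). Ccl9, its neighbour and a CCR1 ligand too, ran from 17.6 to 35.2 with a median of 22.7 CPM and from 23.5 to 85.1 with a median of 44.5 CPM in the same order, and again those 4 NAMPT libraries stood above all EV libraries. The fit gave 0.78 ± 0.24 SE (adjusted p = 0.0357). Ccl4, a product of activated macrophages and lymphocytes, was low, from 0.165 to 0.879 with a median of 0.261 CPM in WT EV and from 0.269 to 2.44 with a median of 1.21 CPM in WT NAMPT. It differed by 1.57 ± 0.51 SE (adjusted p = 0.0434), and it too needed the WT NAMPT libraries to be tested. The 5 ligands had fitted differences of 0.78 to 1.69 on the log2 scale, and 4 of the 5 CC receptors tested had an unadjusted p under 0.05, as had 30.3% of all genes.

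Of the CXCR3 ligands, which interferon induces, 1 of 3 rose. Cxcl10 ran from 2.64 to 8.59 with a median of 4.85 CPM in WT EV and from 2.21 to 22.2 with a median of 13.96 CPM in WT NAMPT, where replicates 1, 2, 3 and 4 exceeded every EV library. The fitted difference was 1.29 ± 0.39 SE on the log2 scale (adjusted p = 0.0309). Cxcl10 overlaps 133 bases of Art3 on the other strand, and how strand was counted is not given in the sources used here. Cxcl9 had the higher level but did not pass the test: it ran from 17.5 to 51.3 with a median of 27.5 CPM in WT EV and from 8.03 to 94.8 with a median of 45.2 CPM in WT NAMPT (log2 fold change 0.43 ± 0.32 SE, adjusted p = 0.385). Cxcl16, a membrane-bound ligand that also takes up oxidised lipoprotein, ran from 7.71 to 13.3 with a median of 10.2 CPM in WT EV and from 8.40 to 23.6 with a median of 17.2 CPM in WT NAMPT. Replicates 1 to 5 of WT NAMPT were above every EV library and replicate 6 was inside their range, and the gene rose by 0.75 ± 0.17 SE (adjusted p = 0.0122). Its receptor Cxcr6 stood at 0.591 to 1.47 CPM in WT EV and 0.895 to 1.57 CPM in WT NAMPT (log2 fold change 0.34 ± 0.24 SE, adjusted p = 0.346). Cxcl16 overlaps 552 bases of Zmynd15 on the other strand.

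**Figure D3:**
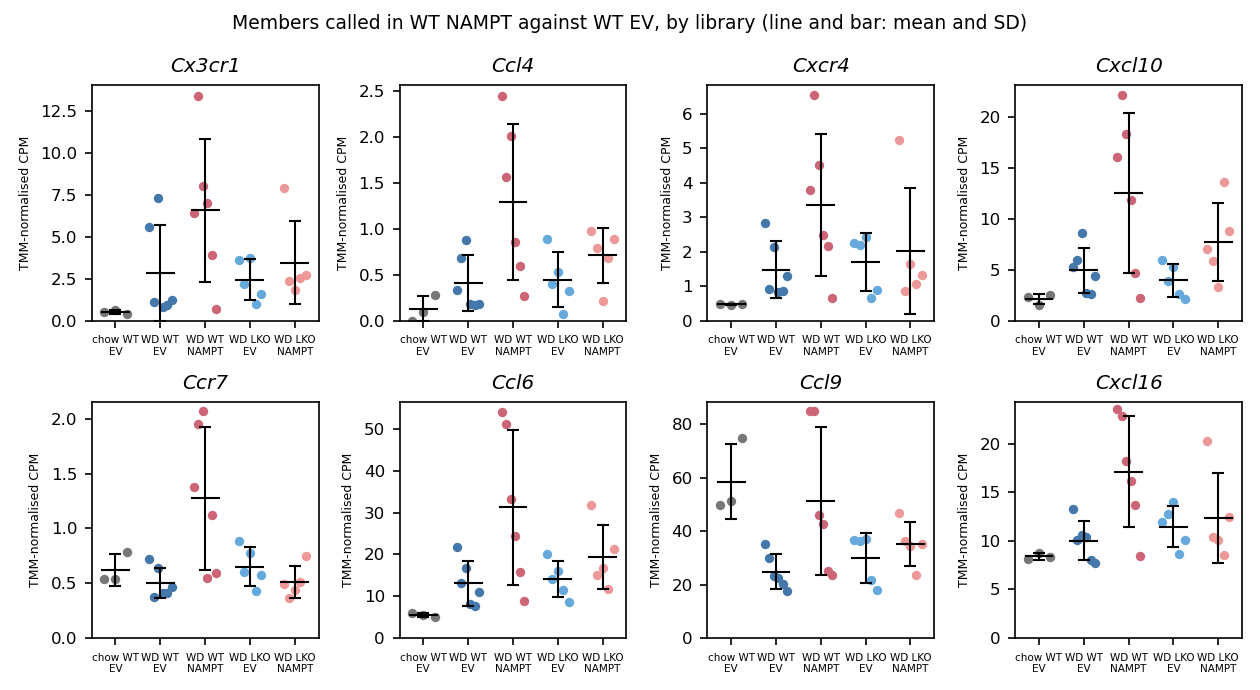
TMM-normalised CPM of the 8 genes that rose in WT NAMPT against WT EV, with a point for each library, a line for the group mean and a bar for 1 SD, in all 5 groups. In all 8 panels the highest WT NAMPT point is above every WT EV point, in 3 (Cx3cr1, Cxcr4 and Cxcl10) the lowest is below them, and for Cx3cr1 the points run from 0.700 to 13.4 CPM.

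The neutrophil-attracting ELR ligands and the monocyte attractant Ccl2 did not pass. Cxcl1 ran from 2.81 to 7.27 with a median of 4.35 CPM in WT EV and from 3.17 to 15.9 with a median of 9.33 CPM in WT NAMPT (log2 fold change 0.84 ± 0.30 SE, adjusted p = 0.0602). Ccl2 was widely spread, with from 0.0539 to 15.99 with a median of 7.16 CPM in WT NAMPT and from 0.596 to 3.71 with a median of 2.04 CPM in WT EV. WT NAMPT replicate 6, at 0.0539 CPM, was the lowest of all 25 libraries and replicate 2, at 15.99 CPM, the highest. The fitted difference of 1.70 ± 0.64 SE missed the threshold (adjusted p = 0.0783). Its receptor Ccr2 stood at 1.20 to 6.75 CPM and 0.431 to 15.9 CPM in WT EV and WT NAMPT, a fitted difference of 1.27 ± 0.45 SE (adjusted p = 0.0577). The lymphoid and epithelial ligand with the highest level, Ccl27a, ran 4.03 to 6.57 CPM and 2.92 to 5.39 CPM (log2 fold change -0.21 ± 0.15 SE, adjusted p = 0.359). All 5 atypical receptors were tested and none passed, with values from -0.32 for Ackr2 to 0.65 for Ackr3 and Ccrl2 on the log2 scale. At an unadjusted p under 0.05 the count over the 35 genes was 21, against 30.3% of all genes.

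The calls in this comparison rested on few libraries and on the fit: without sample quality weights, or with 2 surrogate variables, 0 of the 35 passed in limma. With WT NAMPT replicates 1 and 2 left out, an alternative chosen after the data were seen, none of the 35 passed, and the count ran from 0 without WT NAMPT replicate 3 to 19 without WT NAMPT replicate 6. Over all tested genes the calls numbered 1890, and 132 and 2844 in those 2 fits. It was 4, 2 and 18 without WT NAMPT replicates 1, 2 and 5, and 1, 14, 1, 4 and 5 without WT EV replicates 2, 4, 6, 7 and 8. By gene, the calls held in from 4 of 12 fits without 1 library for Ccl4 to 11 of 12 for Cxcl16. P-values measure the spread between these libraries.

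Genes that transmit or end the chemokine signal, taken from a list outside the naming rule, were examined in the same fit. Of 31 listed genes 29 were tested, 18 were higher and 0 were lower in WT NAMPT, where 7.67% of all genes were higher and 5.77% lower, with a median log2 fold change of 0.63 against 0.00 over all genes. They included the phosphoinositide 3-kinase gamma subunits Pik3cg (1.18 ± 0.23 SE, adjusted p = 0.00759) and Pik3r5 (1.65 ± 0.39 SE, adjusted p = 0.0128). The Rac pathway genes Rac2 (1.03 ± 0.24 SE, adjusted p = 0.0125), Dock2 (0.99 ± 0.21 SE, adjusted p = 0.00945) and Prex1 (0.87 ± 0.17 SE, adjusted p = 0.00735) also rose. So did the desensitising genes Grk2 (0.40 ± 0.09 SE, adjusted p = 0.0127), Arrb2 (0.63 ± 0.14 SE, adjusted p = 0.0110) and Rgs1 (1.71 ± 0.57 SE, adjusted p = 0.0465). Pik3cg, Rac2, Dock2 and the Src family kinase Fgr, which rose too, are best known from leukocytes.

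Some macrophage, monocyte and neutrophil markers were higher in the same libraries. In WT NAMPT against WT EV, 5 of 8 Kupffer cell and macrophage markers, 3 of 5 monocyte markers and 2 of the 6 tested neutrophil markers (8 listed) were higher, where 7.67% of all genes were higher and 5.77% lower, against 0 of 5 hepatocyte markers, and 0 of the tested T, NK, B cell or cholangiocyte markers. Of the others, 1 of 6 dendritic cell markers and 2 of 5 stellate markers were higher, and of 5 sinusoidal endothelial markers 1 was higher and 1 lower. Among the tested neutrophil and dendritic cell markers, some exceeded 1 CPM in WT NAMPT libraries only or needed those libraries to pass the filter. Marker counts, here and below, are therefore descriptions and not evidence of direction. The summed level of the macrophage list was 307 to 444 CPM in WT EV and 289 to 812 CPM in WT NAMPT. That of the monocyte list was 2.02 to 9.03 and 2.48 to 25.02 CPM, and that of the neutrophil list 2.73 to 8.69 and 3.66 to 27.3 CPM, in the same order, and 1 of the 8 neutrophil markers was at 0 in all WT EV libraries. WT NAMPT replicate 6 was the lowest of its group for all 3 sums (289, 2.48 and 3.66 CPM), and replicate 2 was the highest for the monocyte and neutrophil sums (25.02 and 27.3 CPM). In bulk tissue, more cells of a type and more RNA per cell cannot be told apart, and the part of these markers in the chemokine differences was not tested.

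The same vector comparison was then made in the mice labelled LKO. None of the 35 genes passed in LKO NAMPT against LKO EV (limma, 0.00711% of all genes called in either direction), 3 had an unadjusted p under 0.05 (9.63% of all genes), and each of the other tools also called none. The median log2 fold change was 0.09. The 3 were Cxcl9, Ackr2 and Cxcl10. Cxcl9 levels were 19.9, 23.7, 19.6, 11.1 and 14.7 CPM in LKO EV and 49.5, 28.3, 31.9, 47.4 and 21.6 CPM in LKO NAMPT, so 4 of the 5 NAMPT libraries exceeded the highest EV library (0.83 ± 0.35 SE, adjusted p = 0.439). Cxcl10 stood at 5.92, 3.86, 5.28, 2.63 and 2.16 CPM in LKO EV and 7.05, 5.82, 3.31, 13.6 and 8.79 CPM in LKO NAMPT, where 3 libraries were above the EV range (0.93 ± 0.44 SE, adjusted p = 0.511). Of the other genes that rose in WT, Cx3cr1 was 3.62, 2.21, 3.77, 1.01 and 1.59 CPM in LKO EV and 7.92, 2.37, 1.83, 2.54 and 2.71 CPM in LKO NAMPT (0.25 ± 0.52 SE, 95% interval -0.82 to 1.32). Apart from replicate 1 the NAMPT libraries lay inside the EV range. Replicate 1 was also the highest of the libraries labelled LKO for Cxcr4, with 2.25, 2.21, 2.43, 0.657 and 0.896 CPM in EV and 5.23, 0.855, 1.66, 1.06 and 1.32 CPM in NAMPT (-0.34 ± 0.47 SE, 95% interval -1.31 to 0.62). Cxcl16 stood at 11.9, 12.7, 13.97, 8.66 and 10.1 CPM in EV and 20.3, 10.4, 10.1, 8.59 and 12.5 CPM in NAMPT (-0.04 ± 0.18 SE, 95% interval -0.41 to 0.33). Ccl4 stood at 0.885, 0.401, 0.534, 0.0773 and 0.326 CPM in EV and 0.977, 0.789, 0.218, 0.677 and 0.882 CPM in NAMPT, and 1 NAMPT library exceeded the EV range (0.94 ± 0.55 SE, 95% interval -0.19 to 2.08). The fit gave 0.32 ± 0.30 SE for Ccl6, 0.20 ± 0.25 SE for Ccl9 and -0.42 ± 0.40 SE for Ccr7. By role, the 5 inflammatory CC ligands had a median fitted value of 0.32 on the log2 scale and were all positive, the highest being Ccl3 (95% interval -0.51 to 2.51, adjusted p = 0.701), the 5 tested CC receptors ranged from -0.42 to 0.44 and the 4 tested CXC and CX3C receptors from -0.50 to 0.25. Of the signalling list 0 of 29 were higher and 0 lower in limma, with 1 at an unadjusted p under 0.05 and a median log2 fold change of 0.08. The macrophage sum was 337 to 417 CPM in LKO EV and 309 to 633 CPM in LKO NAMPT, where replicate 1 was the highest of the libraries labelled LKO, and the part of these markers was not tested.

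**Figure D4:**
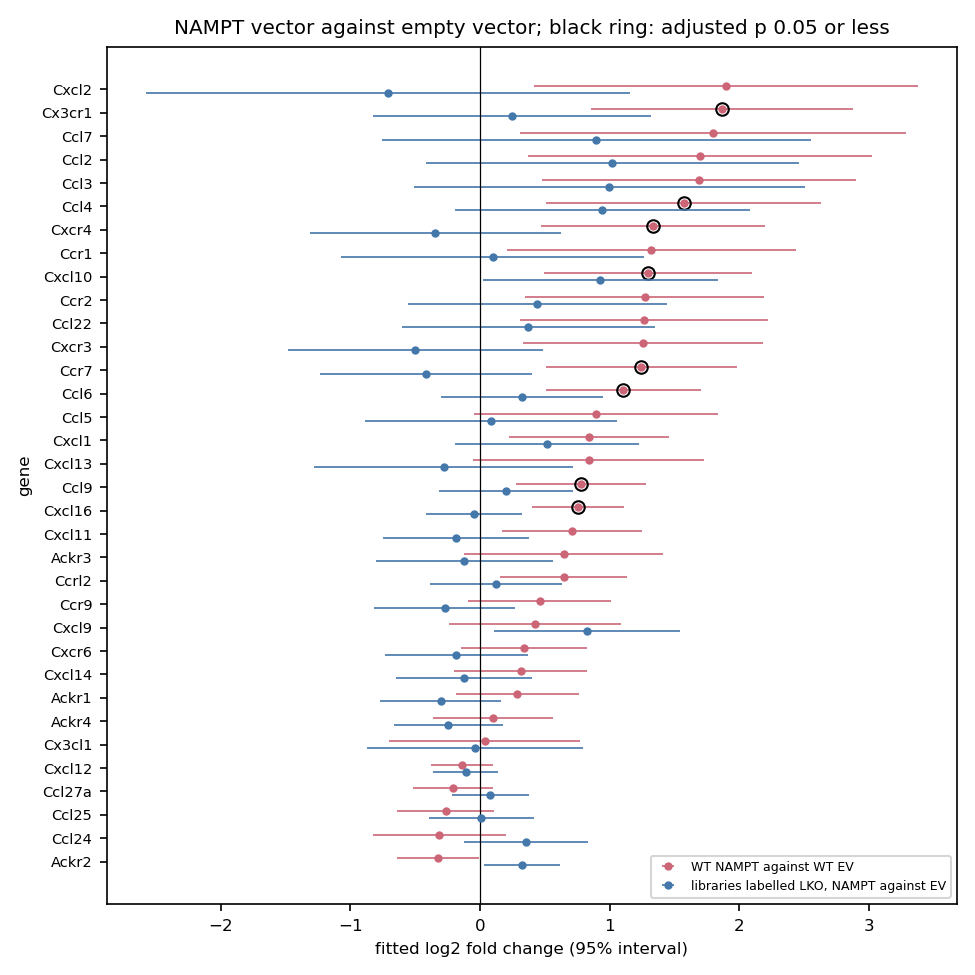
Fitted log2 fold changes with 95% intervals for 34 of the 35 tested genes, NAMPT vector against empty vector, in WT (red) and in libraries labelled LKO (blue), and black rings mark an adjusted p of 0.05 or less. All 8 rings are on the WT points, and most blue intervals include 0.

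Whether the vector effect differed between the genotype labels was tested as an interaction, and none of the 35 genes passed it (0.00711% of all genes called). 8 had an unadjusted p under 0.05 (21.2% of all genes), edgeR's quasi-likelihood test and DESeq2 called none, and the median was -0.68 on the log2 scale, with 29 of the 35 negative where 51.3% of all genes were. The lowest adjusted p values were those of Cxcl16 (-0.80 ± 0.25 SE, adjusted p = 0.0938), Ccr7 (-1.66 ± 0.53 SE, adjusted p = 0.0984) and Ackr2 (0.65 ± 0.21 SE, adjusted p = 0.0988). A vector effect that passed in WT and not in the mice labelled LKO was therefore not shown to differ between them for any of these genes. Without WT NAMPT replicate 6 or LKO NAMPT replicate 1 the count was 1, Cxcl16, in fits that called 636 and 677 of all genes.

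Set directly against WT NAMPT, LKO NAMPT differed in 3 of the 35 genes. Ackr2, the scavenger of inflammatory CC chemokines, was higher (4.18% of all genes were higher and 3.78% lower). Its levels were from 2.33 to 2.97 with a median of 2.47 CPM in WT NAMPT and 4.78, 4.50, 4.67, 3.13 and 4.92 CPM in LKO NAMPT, so the groups did not overlap, as in 0.789% of all genes in this direction. The fit gave 0.67 ± 0.15 SE on the log2 scale, or 1.59-fold (adjusted p = 0.0181), whereas Ackr2 differed by 0.02 ± 0.14 SE between the genotype labels under the empty vector (adjusted p = 0.999). Cxcl16 was lower, with 20.3, 10.4, 10.1, 8.59 and 12.5 CPM in LKO NAMPT and 5 of 6 WT NAMPT libraries above 4 of those 5 values (-0.57 ± 0.17 SE, adjusted p = 0.0444). Ccr7 was lower too, with 0.489, 0.362, 0.436, 0.508 and 0.746 CPM in LKO NAMPT, where 4 of the 5 values were below every WT NAMPT library (-1.22 ± 0.37 SE, adjusted p = 0.0435). As it was tested only through the WT NAMPT libraries, this is again a description. Cxcr4 (-1.30 ± 0.43 SE, adjusted p = 0.0581) and Cx3cr1 (-1.19 ± 0.45 SE, adjusted p = 0.0856) missed the threshold. Of the signalling list, 12 of 29 were lower and 0 higher, and of the leukocyte markers 2 of 8 macrophage, 1 of 5 monocyte, 1 of 6 tested neutrophil and 1 of 4 tested T cell markers were lower, as were 1 of 5 hepatocyte markers (Tat) and 1 of 4 cholangiocyte markers (Sox9). The macrophage sum was 309 to 633 CPM in LKO NAMPT, and the part of these markers was not tested. WT NAMPT replicates 1, 2, 3, 5 and 6 each moved the count when left out, to 1, 1, 0, 10 and 10, and LKO NAMPT replicates 1, 2, 3, 4 and 5 to 6, 0, 1, 5 and 0. The calls over all genes moved too, from 1120 to between 0 and 2290.

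Under the empty vector the genotype labels were not distinguished. In LKO EV against WT EV, 0 of the 35 genes passed in limma and in each of the other tools, 0.00711% of all genes did, and 3 (Ackr4, Ackr3 and Ccl25) had an unadjusted p under 0.05 (6.33% of all genes). The median log2 fold change was 0.14. Ackr4, a scavenger of homeostatic chemokines, stood at from 1.14 to 3.22 with a median of 2.42 CPM in WT EV and 4.11, 2.91, 3.32, 3.71 and 2.65 CPM in LKO EV (0.57 ± 0.21 SE, adjusted p = 0.654). Ackr3, which binds CXCL12, differed by 0.79 ± 0.36 SE (adjusted p = 0.761).

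The effect of diet was examined between the empty-vector WT groups, WD (n = 6) and chow (n = 3). Of the 35 genes 4 were higher on WD (10.1% of all genes were) and 4 were lower (12.0% of all genes were), and the median log2 fold change was 0.60. The higher genes included Cxcl9, Cxcl1 and Ccl6, and the lower genes were Cxcl13, Ackr4, Ccl9 and Cxcl12. The groups did not overlap for 7 genes in the higher direction (among them Ccl6, Ccr2, Cx3cr1, Cxcl10, Cxcl9 and Cxcr4) where 7.66% of all genes did so, and for 3 in the lower direction (Ackr4, Ccl9 and Cxcl13) where 8.45% did. Scaled by library totals alone, 2 of the 35 were higher and 4 lower.

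The gene with the largest change among those called was Cxcl13, the B cell attractant. Its chow libraries stood at 7.53, 2.94 and 2.60 CPM and its WD libraries ran from 0.453 to 1.32 with a median of 0.714 CPM, so that every chow library was above every WD library. The difference was -2.60 ± 0.39 SE on the log2 scale, or 0.165-fold (adjusted p = 4.38e-05). B cell markers were sparse: 1 of the 3 tested was lower on WD, as were 12.0% of all genes, and the part of these markers was not tested. Among the lower genes Ackr4 came next, at 4.34, 4.85 and 5.56 CPM on chow and from 1.14 to 3.22 with a median of 2.42 CPM on WD (-1.11 ± 0.21 SE, adjusted p = 6.43e-04). Ackr4 overlaps 479 bases of Acad11, a gene of fatty acid oxidation, on the other strand. Cxcl12 stood at 319, 275 and 321 CPM on chow and from 190.0 to 279.6 with a median of 216 CPM on WD, where the highest WD library, replicate 8, reached into the chow range (-0.36 ± 0.12 SE, adjusted p = 0.0356). The Cxcl12 call held in only 4 of 11 alternatives and 4 of 9 fits without 1 library, with adjusted p up to 0.205, and its direction was kept in all.

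Ccl6 and Ccl9, separated by 9245 bases and with promoters printed above, moved in opposite directions with diet. Ccl6 stood at 6.00, 5.52 and 5.09 CPM on chow and from 7.73 to 21.6 with a median of 11.99 CPM on WD, a difference of 1.14 ± 0.40 SE on the log2 scale (adjusted p = 0.0450). The Ccl6 call was lost in 6 of 11 alternatives and in 6 of 9 fits without 1 library, with adjusted p up to 0.294, whereas its direction was kept in all of them. Ccl9 stood at 49.6, 51.2 and 74.8 CPM on chow and from 17.6 to 35.2 with a median of 22.7 CPM on WD, so it fell (-1.07 ± 0.25 SE, adjusted p = 0.00371), and was called in all of those fits. Neither gene's chow range overlapped its WD range. With the NAMPT vector in WT, by contrast, both were higher, as given above. The 2 comparisons share the WD WT EV libraries.

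Of the genes higher on WD, Cxcl9 stood at 7.11, 6.28 and 16.4 CPM on chow and from 17.5 to 51.3 with a median of 27.5 CPM on WD (1.93 ± 0.44 SE, adjusted p = 0.00306). Cxcl1 stood at 1.86, 1.47 and 3.55 CPM on chow and from 2.81 to 7.27 with a median of 4.35 CPM on WD, and WD replicate 7 lay below chow replicate 3 (1.30 ± 0.45 SE, adjusted p = 0.0415). The Cxcl1 call held in only 4 of 11 alternatives and 3 of 9 fits without 1 library, with adjusted p up to 0.510, and its direction was kept in all. Cx3cr1 and Cxcr4 did not overlap between the diets, with 0.496, 0.623 and 0.394 and 0.496, 0.445 and 0.473 CPM on chow, and did not pass the test (1.65 ± 0.89 and 1.36 ± 0.68 SE, adjusted p = 0.191 and 0.155). Of the markers, 2 of 8 macrophage markers (Cd5l and Cd68), 1 of 5 monocyte markers (Ly6c2) and 1 of 2 tested NK cell markers (Nkg7) were higher on WD. Also higher were 1 of 5 stellate markers (Lrat) and 1 of 5 sinusoidal endothelial markers (Lyve1), another of which (Kdr) was lower. Of 5 hepatocyte markers 2 (Cyp3a11 and Tat) were lower. Over all genes 10.1% were higher and 12.0% lower. The macrophage sum was 248 to 307 CPM on chow and 307 to 444 CPM on WD. The part of these markers was not tested. The count of 8 fell to 3 without chow replicate 1 or chow replicate 2 and to 5 without WD WT EV replicate 1 or 4, as the calls over all genes went from 3101 to 966, 834, 2500 and 2661, whereas Cxcl13, Ackr4 and Ccl9 were called in all 9 fits that left out 1 library.

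**Figure D5:**
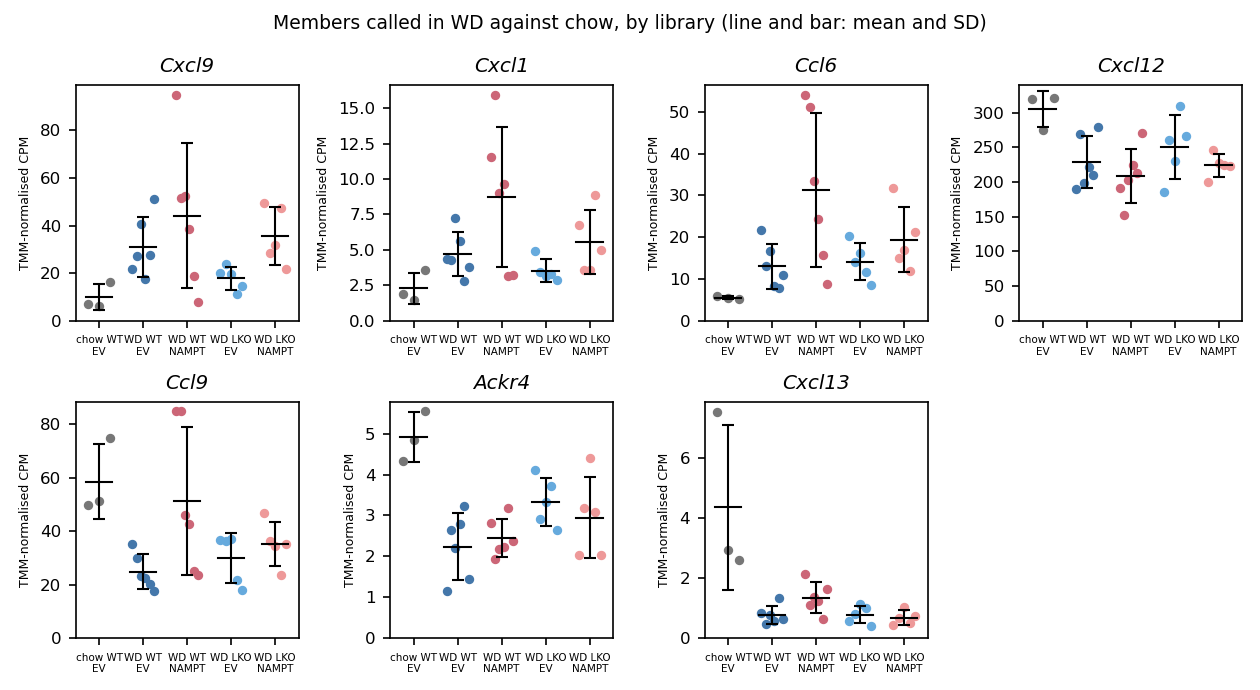
TMM-normalised CPM of 7 of the 8 genes called between WD and chow in WT EV mice, with a point for each library, a line for the group mean and a bar for 1 SD, in all 5 groups. Cxcl13, Ackr4 and Ccl9 have every chow point above every WD WT EV point, and Cxcl9 and Ccl6 have every chow point below.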

How the data were processed

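Liver poly(A) RNA from 25 mice was sequenced as 50-base single reads on an Illumina HiSeq-3000. The authors aligned reads with STAR to GRCm38 (Ensembl release 76) and used Subread featureCounts to assign reads that aligned uniquely and to 1 gene only. The submitters' processing notes give STAR 2.5.1a and featureCounts 1.4.6-p5, other versions than the study's methods, and the strand setting is not given in the sources used here. The deposited files hold raw read counts per gene, which were analysed, beside the authors' CPM (counts scaled to a common library size) and the authors' RPKM (CPM per kb of exon), which were not used in any test. Low counts, from 1 to 20, were even in 57.2% to 66.8% of gene identifiers in a library, against 48.8% to 51.3% for counts over 100. Reads of low genes may therefore not be independent, and floors and intervals from counts may be too narrow for them. The cause was not tested. Samples were grouped by their titles, and replicate numbers are those of the titles.

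Counts were scaled by TMM (edgeR 4.0.16). After removal of 4 ribosomal RNA-type genes, 14065 genes over 1 CPM in at least 2 libraries were fitted together with limma 3.58.1 (voom with sample quality weights, 1 mean per group, all 25 libraries, R 4.3.3), as the study's methods describe. Adjusted p is Benjamini-Hochberg over all 14065 genes, a gene was called at 0.05 or less, and 6 comparisons were made. Errors are standard errors of the fitted log2 fold change. The procedure was tested on simulated data first. Alternatives were edgeR's quasi-likelihood and exact tests, DESeq2 1.42.0, fits without quality weights, without the filter or with a filter on mean CPM, upper-quartile factors, library totals, a replicate block, 2 surrogate variables (sva 3.50.0), the groups compared only, and each library left out. Members, role lists, the signalling list and markers were chosen with earlier results of these data known, so no list is independent evidence. Named were genes called in a comparison (at most 12, by size of log2 fold change) and the gene with the highest level per kb in each role list. Some genes that the rule or the lists include are not reported here by name, though counts take them in. Binding partners and low genes named beside them were chosen after their values were seen. No 2 libraries of a group agreed within sampling noise (chi-square per degree of freedom of at least 15.1). Promoters are from RefSeq (GRCm38.p6), in which 44 of the 59 symbols matched, and gene positions are GRCm38 from the deposited files.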

Additional observations from a re-analysis of the deposited data

Results flagged for a closer look

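For the 18 named genes, each group of 5 or 6 libraries was examined for a library far from the rest on the log2(CPM + 0.5) scale. Of 72 gene and group pairs, 2 had such a library, where chance gives about 1 in 20. Ackr2 in LKO NAMPT replicate 4 stood at 3.13 CPM, below the other 4 libraries of its group. Cx3cr1 in LKO NAMPT replicate 1 stood at 7.92 CPM, above the other 4, and that library also had the highest macrophage, monocyte and neutrophil marker sums of its group (632.9, 14.5 and 17.7 CPM), whose part was not tested. For none of the 35 tested chemokine system genes did the vector effect differ between the genotype labels at an adjusted p of 0.05 or less.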

How the results depend on the processing

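In WT NAMPT against WT EV the 8 calls became 4 by edgeR's quasi-likelihood test, 0 without quality weights, 16 with library totals alone, 1 without the filter, 0 with 2 surrogate variables, 1 with the groups compared only and 0 without WT NAMPT replicates 1 and 2, and leaving out 1 library gave 0 to 19. Over all genes the calls in that order went from 1890 to 428, 192, 2281, 524, 66, 804 and 37, and from 132 to 2844 with 1 library left out. The exact test, DESeq2, upper-quartile factors and the mean CPM filter gave 9, 9, 8 and 6 calls. Over all genes these 4 alternatives called 859, 1194, 1808 and 1871. In LKO NAMPT against WT NAMPT the 3 calls became 1 by the quasi-likelihood test, without quality weights or without the filter, 0 with 2 surrogate variables, with the groups compared only or without WT NAMPT replicates 1 and 2, and 0 to 10 with 1 library left out. Over all genes 1120 calls became 45, 38 and 120, then 32, 13 and 5, and 0 to 2290. For diet the 8 calls became 4 by the quasi-likelihood test and 3 without quality weights, and 3 to 8 with 1 library left out, while the calls over all genes went from 3101 to 1322, 1201 and 834 to 3175. Cxcl13, Ackr4 and Ccl9 were called between the diets under all 11 alternatives and in all 9 fits without 1 library. For LKO NAMPT against LKO EV and LKO EV against WT EV the count was 0 in all fits, and for the interaction it was 0, or 0 to 1 with 1 library left out. Scaling by library totals alone moved the median log2 fold change of all genes in WT NAMPT against WT EV to 0.16 and that of the 35 to 0.91. The causes were not tested, except that the fit without the filter adds genes and the fit of the groups compared uses fewer libraries.

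Same-numbered libraries did not deviate together in a constant way. Their correlations were -0.23 to 0.41 for WT NAMPT and WT EV and -0.15 to 0.27 for LKO NAMPT and LKO EV. For LKO EV and WT EV they were -0.38 to 0.42. Whether replicate numbers pair the samples was therefore not settled. With the replicate block the counts were 4 in WT NAMPT against WT EV, of which 2 were among the 8, 0 in LKO NAMPT against WT NAMPT, and 19 for diet, with 884, 412 and 3842 calls over all genes, and Cxcl10's interaction was 0.062.

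Directions turned as follows, in log2 units. With 2 surrogate variables, Cxcr4 (-0.15) and Cx3cr1 (-0.22) turned in WT NAMPT against WT EV, Ccl9 (-0.10) in LKO NAMPT against LKO EV, and Cxcl10 (0.61), Cx3cr1 (0.49) and Ccl4 (0.092) in the interaction, where Cxcl10 was also 0.012 without WT NAMPT replicates 1 and 2. In LKO NAMPT against LKO EV, Cxcr4 was 0.26 by the quasi-likelihood test, the exact test and DESeq2 and 0.10 without quality weights, and Cxcl16 was 0.11 by those 3 tools, 0.072 without quality weights and 0.036 without the filter. With 1 library left out, Cxcr4 there ran from -0.61 to 0.039, Cx3cr1 from -0.014 to 0.59 and Cxcl16 from -0.14 to 0.075.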
